A study of Mus musculus with 2 samples.

Results

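The stefin A cluster genes are 6 mouse paralogs on chromosome 16, Stfa2l1, Gm5483, Stfa1, BC100530, Stfa2 and Stfa3, taken by symbol from the 24421 genes with a deposited expression value. They were chosen by the measured values themselves, the RPKM of both libraries, in which they were among the genes with the largest rise in the progenitors of tumor-bearing mice. Their values therefore describe 2 libraries and carry no test. RNA was measured by bulk RNA-seq in granulocyte-monocyte progenitors (GMPs), the bone marrow cells that give rise to neutrophils and monocytes. GMPs were sorted from female non-tumor-bearing mice (NTB-GMP, 1 library) and from female mice that carried 4T1 cells, a mouse mammary carcinoma line, implanted orthotopically (4T1-GMP, 1 library). Both groups had the same labelled background, F1 semi-syngeneic (H-2b/d), whereas BALB/c and C57BL/6 mice are named in the methods of the study. No genetic change was labelled in either group. For GMPs used in culture, the study removed cells bearing Ter-119 (erythroid), Gr-1 (neutrophils and monocytes), B220 or CD3 (lymphoid), then gated by CD16/32, CD150, Sca-1 and c-Kit; the sort behind these libraries is labelled only as flow cytometry of bone marrow. How many mice went into each library was not given in the sources used here. With 1 library per group, no difference could be set against replicate error.

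Stefins, or type 1 cystatins, are small cytosolic proteins that block papain-like cysteine proteases, the cathepsins, by binding tightly in the active site. In mice the stefin A gene has multiplied into a cluster of closely related copies, and these genes are known for their expression in cells of the neutrophil lineage and in skin. Stefin B (Cstb) is the other type 1 cystatin and is expressed in most cells, while Cst3 and Cst7 belong to the secreted cystatins.

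The members lay within 298.6 kb of chromosome 16 (build GRCm38, the mm10 of the labels; gene bounds from GENCODE M21). Stfa2l1 (chr16:36156811-36161953), Gm5483 (chr16:36184212-36188111) and Stfa1 (chr16:36276951-36285373) were annotated on the plus strand. BC100530 (chr16:36359382-36367748), Stfa2 (chr16:36403992-36408457) and Stfa3 (chr16:36450537-36455392) were on the minus strand. Each had 3 exons. The coding sequence before the stop codon had 309 bases in Stfa2l1, Stfa2 and Stfa3, and 291 bases in Gm5483, Stfa1 and BC100530. RefSeq calls Gm5483 Cstdc4 and BC100530 Cstdc5.

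The second exon is coding throughout and has 102 bases in all 6 genes, which makes it the clearest place to see how alike the paralogs are and where a read could tell them apart. The sequences were read from GENCODE M21 transcripts and are written 5′ to 3′ along each gene, with capitals at the 31 positions where the members are not all alike and lower case at the other 71. They lie at chr16:36159946-36160047 (Stfa2l1), chr16:36186364-36186465 (Gm5483), chr16:36280466-36280567 (Stfa1), chr16:36364212-36364313 (BC100530), chr16:36405130-36405231 (Stfa2) and chr16:36452151-36452252 (Stfa3).
Stfa2l1: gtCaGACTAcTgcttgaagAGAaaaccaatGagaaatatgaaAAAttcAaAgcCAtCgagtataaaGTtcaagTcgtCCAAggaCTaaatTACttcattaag
Gm5483: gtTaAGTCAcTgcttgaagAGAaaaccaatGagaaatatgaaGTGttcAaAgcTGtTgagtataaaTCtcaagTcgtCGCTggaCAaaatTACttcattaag
Stfa1: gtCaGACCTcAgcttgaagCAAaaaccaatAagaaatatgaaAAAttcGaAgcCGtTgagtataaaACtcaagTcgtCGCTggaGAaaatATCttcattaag
BC100530: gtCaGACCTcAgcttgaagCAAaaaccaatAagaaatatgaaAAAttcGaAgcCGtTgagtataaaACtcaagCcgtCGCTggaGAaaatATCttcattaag
Stfa2: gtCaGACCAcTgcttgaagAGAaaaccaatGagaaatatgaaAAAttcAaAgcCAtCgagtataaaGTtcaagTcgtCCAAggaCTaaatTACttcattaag
Stfa3: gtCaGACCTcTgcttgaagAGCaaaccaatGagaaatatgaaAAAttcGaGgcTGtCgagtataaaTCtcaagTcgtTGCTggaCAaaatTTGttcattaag
In this exon Stfa1 and BC100530 differed at 1 of 102 bases, and so did Stfa2l1 and Stfa2, whereas Stfa2l1 and BC100530 differed at 19. Over the whole coding sequence the 15 pairs of members were 77.8% to 97.9% identical, with a median of 81.6%. The closest pair was Stfa1 and BC100530 at 97.9%, followed by Stfa2l1 and Stfa2 at 96.4%.

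The bases just upstream of the members were also alike. Within the 250 bases before the RefSeq start site (GRCm38.p6), Stfa1 and BC100530 were 96.1% identical over the 229 bases that aligned, and Stfa2l1 and Stfa2 were 92.3% identical over 246. All 6 upstream regions held the 12-base stretch ACCTTTAAAACC, which began 12 to 36 bases before the start site. The 30 bases that end with it are shown 5′ to 3′ along each gene because this was the longest stretch common to all members, with the shared stretch in capitals. They lie at chr16:36156757-36156786 (Stfa2l1), chr16:36184162-36184191 (Gm5483), chr16:36277097-36277126 (Stfa1), chr16:36367571-36367600 (BC100530), chr16:36408384-36408413 (Stfa2) and chr16:36455415-36455444 (Stfa3).
Stfa2l1: gaggaggagtttacagaaACCTTTAAAACC
Gm5483: gaggaggagtttacagatACCTTTAAAACC
Stfa1: gaggaggagctttcggatACCTTTAAAACC
BC100530: gaggaggagtttacagatACCTTTAAAACC
Stfa2: gaggaggagcttacagaaACCTTTAAAACC
Stfa3: aggaggagcttacagataACCTTTAAAACC
For Stfa1, BC100530 and Stfa2 GENCODE M21 places the start of the gene further upstream, so that these bases lie in the first exon there. The stretch was found in 11 of 32851 mouse upstream regions of the same length, on either strand. These were the regions of the 6 members, of their paralogs Gm5416, listed at 0 in both libraries, and Cstdc3, not analysed here, and of Cdc42ep4, Gm39539 and Gm7260. AGAGGAGGAG and CACACTCATT were also common to all 6 members, and were found in 268 and 27 upstream regions. The letters TATAAA, the usual TATA box, were in none of the members' 250 bases and in 12.4% of all upstream regions. TTTAAA, which lies inside the 12-base stretch and was searched after that stretch had been seen, was in all 6 and in 12.1% of all. TTGCNNAA, letters bound by C/EBP factors, was in 2 members, Stfa1 and BC100530, and in 9.56% of all upstream regions. TTCNNNGAA, letters bound by STAT factors, was in Gm5483 alone among the members and in 7.02% of all. GAGGAAGT, a PU.1 site, and TGANTCA, an AP-1 site, were in no member and in 2.44% and 6.75% of all. Both strands were searched, and a match describes letters only.

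Every member was listed at 0 RPKM, a read count scaled by gene length and library size, in NTB-GMP and above 0 in 4T1-GMP. The whole reads behind the RPKM could be recovered, which gave 0 reads for the 6 genes together in NTB-GMP, against 1387 in 4T1-GMP. The library sizes by which the RPKM had been scaled were recovered as 10180365.24 for NTB-GMP and 30016262.8 for 4T1-GMP, a 2.95-fold difference. They are not whole numbers, so they need not be the read totals, which were not given in the sources used here. Reads scaled by these library sizes alone are given as RPM. At the level in 4T1-GMP, and with these sizes, 470.4 cluster reads would have fallen in NTB-GMP. Against a floor of 3 reads over the 6 genes, which corresponds to 0.295 RPM in NTB-GMP, the summed level of 46.2 RPM in 4T1-GMP was at least 157-fold higher. All such bounds for the cluster genes rest on a set floor of 3 reads and leave out the counting error of the 4T1-GMP reads, so they are not hard minima. The lower ends of 95% intervals were lower, at log2 5.27 for BC100530 beside 5.57 on the floor, and 2.34 for Stfa3 beside 2.69. Intervals cover counting error only, as 1 library per group gives no replicate error. PCR reads without molecular identifiers are not independent molecules, so intervals and floors can understate even that error. In bulk RNA, more cells that express the cluster and more cluster RNA per cell cannot be told apart.

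Stfa2l1, a paralog of Stfa2, was at 0 RPKM in NTB-GMP and at 32.2 RPKM in 4T1-GMP, from 400 reads. A floor of 3 reads in NTB-GMP corresponds to 0.712 RPKM, and on this floor the level in 4T1-GMP was at least 45.2-fold higher. BC100530 was at 0 RPKM in NTB-GMP and at 31.8 RPKM in 4T1-GMP, from 421 reads. Its level in 4T1-GMP was at least 47.6-fold higher, on the floor of 0.668 RPKM in NTB-GMP. These were the genes with the highest levels in 4T1-GMP among the 967 genes that were at 0 in NTB-GMP and above 0 in 4T1-GMP.

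Stfa2 was at 0 RPKM in NTB-GMP and at 22.6 RPKM in 4T1-GMP, from 287 reads, which was at least 32.4-fold higher. Gm5483 was at 0 RPKM in NTB-GMP and at 17.4 RPKM in 4T1-GMP, from 216 reads, which was at least 24.4-fold higher. Both were well above their floors of 0.697 and 0.714 RPKM, and they ranked 3 and 4 among the 967 genes.

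Stfa3 was at 0 RPKM in NTB-GMP and at 4.61 RPKM in 4T1-GMP, from 57 reads, which was at least 6.44-fold higher on a floor of 0.715 RPKM. Stfa1 was at 0 RPKM in NTB-GMP and at 0.478 RPKM in 4T1-GMP, from 6 reads. The Stfa1 level in 4T1-GMP lay below the floor of 0.705 RPKM in NTB-GMP, where it would have given 2.03 reads, so a difference in Stfa1 was not detectable at this depth. No fold change on the floor is therefore given for Stfa1.

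**Figure D1:**
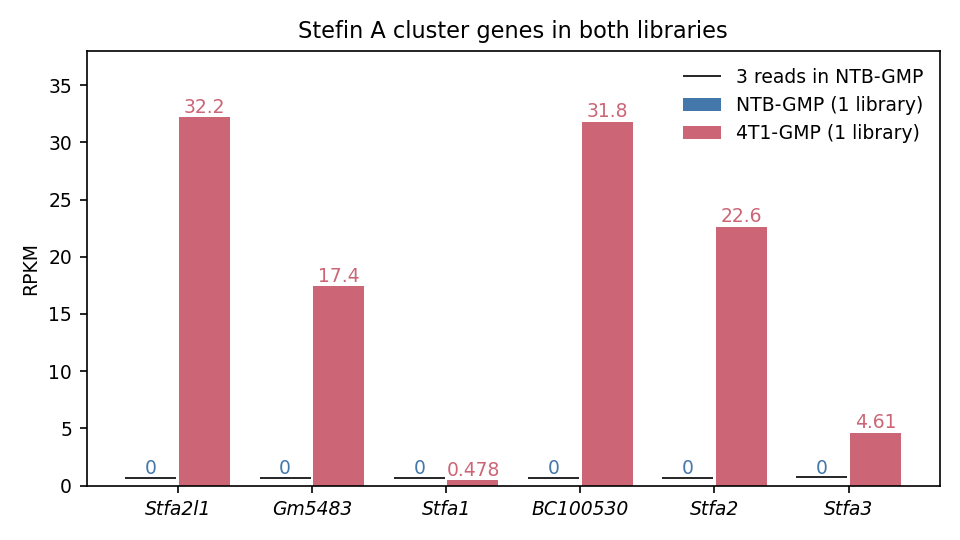
RPKM of the 6 stefin A cluster genes, in their order along the chromosome, in NTB-GMP and 4T1-GMP (1 library each, so no error bars), with black lines at the level that 3 reads would give in NTB-GMP. All members are at 0 in NTB-GMP, and in 4T1-GMP they range from 0.478 RPKM for Stfa1 to 32.2 RPKM for Stfa2l1.

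With 0.1 added to each RPKM before taking log2, which makes changes of weakly expressed genes look smaller and gives no bound for a gene at 0, the differences of 4T1-GMP over NTB-GMP were 8.33 for Stfa2l1, 8.32 for BC100530, 7.83 for Stfa2, 7.45 for Gm5483, 5.56 for Stfa3 and 2.53 for Stfa1. The value for Stfa1 is set by the pseudocount, and its difference was not detectable at this depth. Of the 6 members, 5 reached 1 RPKM on average over the libraries, and all 5 were at least 2-fold higher in 4T1-GMP, the contrast by which they were picked. All were at 0 in NTB-GMP, so they passed this filter through 4T1-GMP alone and could not have missed the 2-fold cut. Among all 10378 genes that averaged at least 1 RPKM, 3.25% were at least 2-fold higher and 4.92% at least 2-fold lower. The median difference over these genes was 0.05. The first 4 members held ranks 1 to 4 of the 10378 and Stfa3 rank 9. Only 11 of the 10378 genes (0.106%) were listed at 0 in NTB-GMP, and 6 of these lay in the cluster.

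**Figure D2:**
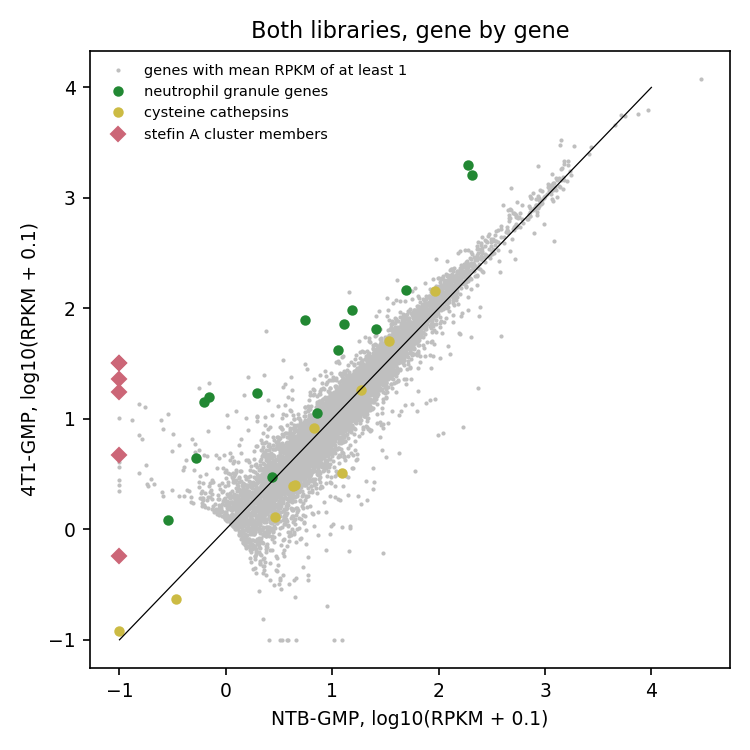
Level of each gene in NTB-GMP (x axis) and 4T1-GMP (y axis), both as log10(RPKM + 0.1), with the line of equal levels. Grey points are the 10378 genes that averaged at least 1 RPKM, and the 6 stefin A members form a column at 0 RPKM in NTB-GMP, at the left edge.

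The members contributed unequally to the cluster in 4T1-GMP. Of the summed 109 RPKM, Stfa2l1 held 29.5%, BC100530 29.1%, Stfa2 20.7%, Gm5483 16%, Stfa3 4.22% and Stfa1 0.438%. As shares of the 1387 reads, Stfa2l1 had 28.8% (95% Clopper-Pearson interval 26.5% to 31.3%) and BC100530 30.4% (27.9% to 32.8%). Stfa2l1 and BC100530 could not be told apart by level, with a ratio of RPKM of 1.01 (0.880 to 1.16, counting error). BC100530 was 1.41-fold above Stfa2 (1.21 to 1.64), Stfa2 was 1.30-fold above Gm5483 (1.08 to 1.56) and Gm5483 was 3.78-fold above Stfa3 (2.81 to 5.15). Stfa3 was 9.64-fold above Stfa1 (4.17 to 27.4). No shares could be given for NTB-GMP, which had no cluster reads.

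The closest relatives by sequence did not have the closest levels. BC100530 and Stfa1, 97.9% identical in coding sequence, differed 66.5-fold in listed RPKM within 4T1-GMP (30.3 to 182, counting error). This interval leaves out reads placed on the wrong gene of the pair. Stfa2l1 and BC100530, with like levels, belonged to different pairs of relatives. Stfa2l1 and Stfa2, 96.4% identical, were at 32.2 and 22.6 RPKM.

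Reads of such similar genes can be placed on the wrong paralog, left out, or shared. The submitters' processing notes name HTSeq as a counter but give no setting for reads with several placements, and the read length was not given in the sources used here. The share of each member's transcript windows that occur in no other gene's transcript was therefore computed in GENCODE M21. At windows of 50 bases it was 100% for Stfa3, 84.1% for Stfa2, 75.4% for Stfa2l1, 73.1% for Stfa1, 64.4% for Gm5483 and 51.1% for BC100530. At 100 bases it was 100% for Stfa3, Stfa2 and Stfa2l1, 94.4% for Stfa1, 88.9% for Gm5483 and 77.7% for BC100530. The transcripts had 617 bases for Stfa1, 619 for BC100530 and 471 for Stfa2. The lengths behind their RPKM were shorter, at 418, 441 and 423 bases, so some windows lie outside the counted bases. BC100530 shared its other windows of 100 bases with Stfa1, BC117090 and Gm15845, an antisense transcript that overlaps it, and Gm5483 shared its own with 2010005H15Rik. BC100530 had the lowest share of windows of its own and nearly the highest level, and Stfa1 had a higher share and the lowest level. The part that read placement has in these levels was not tested. Stfa3, none of whose windows occurred elsewhere, was at 0 and 57 reads. Where strand was not used in counting, reads of BC100530 and Gm15845 cannot be told apart. The sum over the cluster does not depend on which member a read was given to. It can still lose reads that fit several members, where such reads were left out. It can also gain or lose reads that belong to genes outside the 6, such as BC117090. Without BC100530 it came to 966 reads in 4T1-GMP, at least 109-fold higher than in NTB-GMP.

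**Figure D3:**
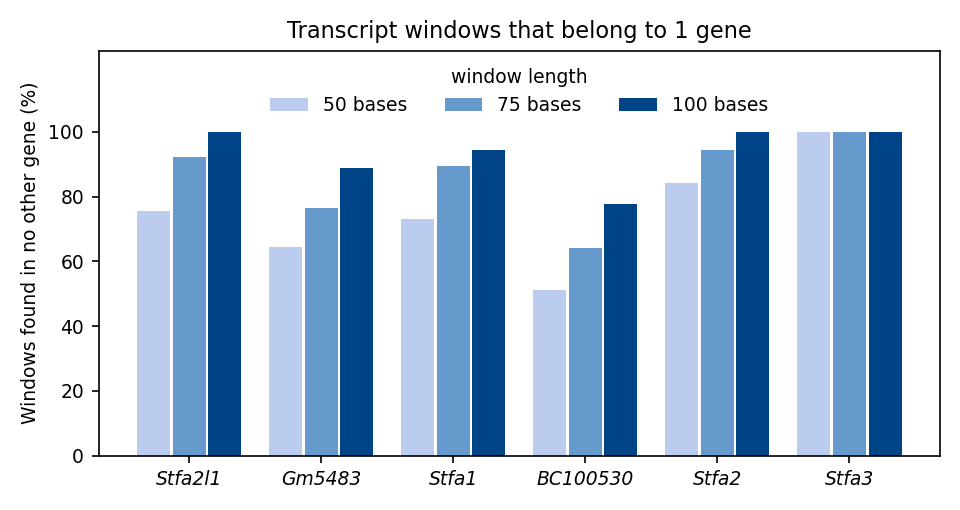
Percent of each member's transcript windows of 50, 75 and 100 bases that were found in no other gene's transcript in GENCODE M21. The bars reach 100% for Stfa3 at every length and are lowest for BC100530, from 51.1% at 50 bases to 77.7% at 100 bases.

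Besides the members, the cluster holds Csta1, Gm5416, 2010005H15Rik and BC117090, which are paralogs of the same family. BC117090 (chr16:36321665-36334332, Cstdc6 in RefSeq) was at 0 RPKM in NTB-GMP and at 3.96 RPKM in 4T1-GMP, from 46 reads, which was at least 5.20-fold higher. It lies between Stfa1 and BC100530 and was up to 95.5% identical in coding sequence with a member. Csta1, Gm5416 and 2010005H15Rik were listed at 0 in both libraries. All 10 cluster genes examined were thus at 0 in NTB-GMP, and 7 had reads in 4T1-GMP. For 2010005H15Rik, up to 96.9% identical with a member, the 0 stands beside Gm5483 at 17.4 RPKM, with which it shares windows. Gm5416 was at 0 with 100% of its windows of 50 bases its own.

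Genes on either side of the cluster, looked at after the cluster's values had been seen, were at like levels in both libraries on the lower side and low on the other. On the lower side, the differences of the 5 nearest protein-coding genes on the log2 scale ran from -0.35 for Parp9 to 0.42 for Fam162a. The nearest of them, Ccdc58, was at 13.6 RPKM in NTB-GMP against 16.7 in 4T1-GMP, with a difference of 0.29. On the upper side, past Stfa3, Casr and Ildr1 were at 0 in both libraries. Cd86, Slc15a2 and Eaf2 were at 0.271, 1.29 and 0.407 RPKM in NTB-GMP and at 0.0656, 0.0397 and 0.154 RPKM in 4T1-GMP. None of these 10 flanking genes was at 0 in NTB-GMP and above 0 in 4T1-GMP.

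**Figure D4:**
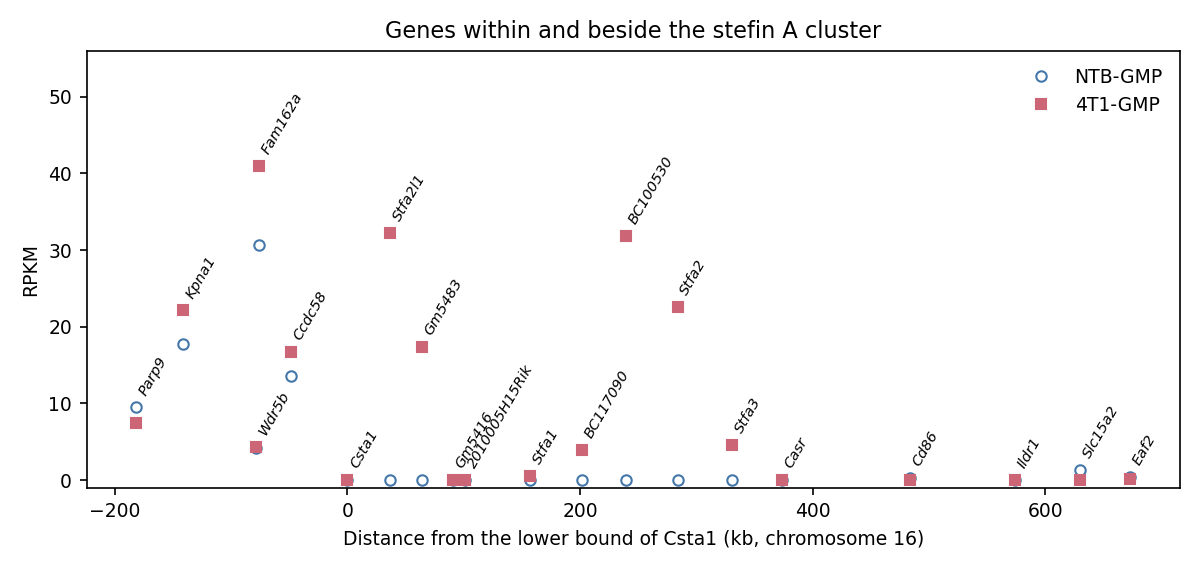
RPKM in NTB-GMP (open circles) and 4T1-GMP (filled squares) of the genes within and beside the cluster, by distance from the lower bound of Csta1 in kb. Between Csta1 and Stfa3 all NTB-GMP points lie at 0 and 7 of the 4T1-GMP points lie above it, while the genes to the left have similar levels in both libraries.

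Cystatins outside the cluster did not share the cluster's pattern of reads in 4T1-GMP alone. Cstb, the ubiquitous stefin, was at 23.5 RPKM in NTB-GMP against 27.3 in 4T1-GMP, a log2 difference of 0.22 (95% interval -0.17 to 0.62, counting error). The summed cluster, at 109 RPKM in 4T1-GMP, was at 3.99 times the level of Cstb there. Cst7, an inhibitor of cathepsin C, was at 149 and 211 RPKM, a log2 difference of 0.51 (0.42 to 0.59). Cst3, the secreted cystatin C, was at 203 and 183 RPKM, a log2 difference of -0.16 (-0.24 to -0.07). The other 11 of the 14 cystatins examined were listed at 0 in both libraries. The median of the 3 was 0.22, beside 0.05 over all 10378 genes, and none of them was 2-fold higher or lower.

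Of the cysteine cathepsins, the proteases that stefins inhibit, 8 of 10 averaged at least 1 RPKM. None of the 8 was at least 2-fold higher and 2 were at least 2-fold lower (1 after quantile normalization), beside 3.25% and 4.92% of all 10378 genes, and their median log2 difference was -0.41, beside 0.05. Ctsz (cathepsin Z) and Ctsb (cathepsin B) had the highest levels, at 93.2 and 33.7 RPKM in NTB-GMP and 143 and 50.5 RPKM in 4T1-GMP, with log2 differences of 0.62 and 0.58. Ctsl was at 6.58 and 8.23 RPKM (0.32) and Ctsc, which activates the serine proteases of granules, at 18.4 and 18.3 RPKM (-0.01). Ctsh, an aminopeptidase, was at 12.3 RPKM in NTB-GMP against 3.1 in 4T1-GMP (-1.95), and Ctsf at 2.79 and 1.18 RPKM (-1.17). Ctss, the cathepsin of antigen-presenting cells, was at 4.19 and 2.35 RPKM (-0.81), and Ctso at 4.35 and 2.41 RPKM (-0.83). Ctsk and Ctsw were under 1 RPKM in both libraries. Lgmn (legumain), an asparaginyl protease held by other cystatins, was at 0.157 and 0.267 RPKM.

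Genes of later granulocyte stages moved with the cluster. The list called neutrophil granule genes here has 15 genes and also holds other genes of the neutrophil lineage, such as S100a8, S100a9 and Ly6g. Of the 15, 14 averaged at least 1 RPKM, of which 14 were higher and 12 at least 2-fold higher in 4T1-GMP, beside 54.7% and 3.25% of all 10378 genes. Without Rn45s in the library sizes, which shifts log2 ratios of the RPKM themselves by -0.16, 13 of the 14 were higher, Padi4 being the exception, and 4071 of the 10378 genes were higher in place of 5676. The median log2 difference of the 14 was 2.81, and the summed level of the 15 went from 530 RPKM in NTB-GMP to 4136 RPKM in 4T1-GMP. Most of that sum was S100a8 and S100a9, the latter at 189 and 1974 RPKM. The largest differences were those of Mmp9 (4.52), Mmp8 (4.51) and Retnlg (3.81), and the smallest were those of Padi4 (0.13) and Chil3 (0.66). None of these 15 genes was at 0 in NTB-GMP, but this is not particular to the cluster. Cd101, a surface protein of mature neutrophils outside the list, was also at 0 in NTB-GMP and at 2.42 RPKM in 4T1-GMP. Mmp8, the neutrophil collagenase, was at 0.521 RPKM in NTB-GMP against 14.1 in 4T1-GMP, and S100a8, a calgranulin subunit, at 208 and 1594 RPKM. If the cluster had stood to Mmp8 in NTB-GMP as it did in 4T1-GMP, 17.4 cluster reads would have been found in NTB-GMP, and 61.4 on the ratio of S100a8, beside the 0 found. Over the 15 granule genes this number ran from 17.4 to 429.6 reads. Since the cluster was picked for its rise in these libraries, these numbers describe it and do not set it apart from the granule genes. The 10 genes of primary granules and the progenitor stage were all higher, 4 of them at least 2-fold, with a median of 0.71, although Mpo turned lower without Rn45s in the library sizes and Elane and Igfbp4 after quantile normalization. Those at least 2-fold higher then numbered 3 and 2. Ms4a3 (1.35), Prtn3 (1.24) and Srgn (1.18) had the largest differences, and Mpo (0.12) and Igfbp4 (0.20) the smallest.

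**Figure D5:**
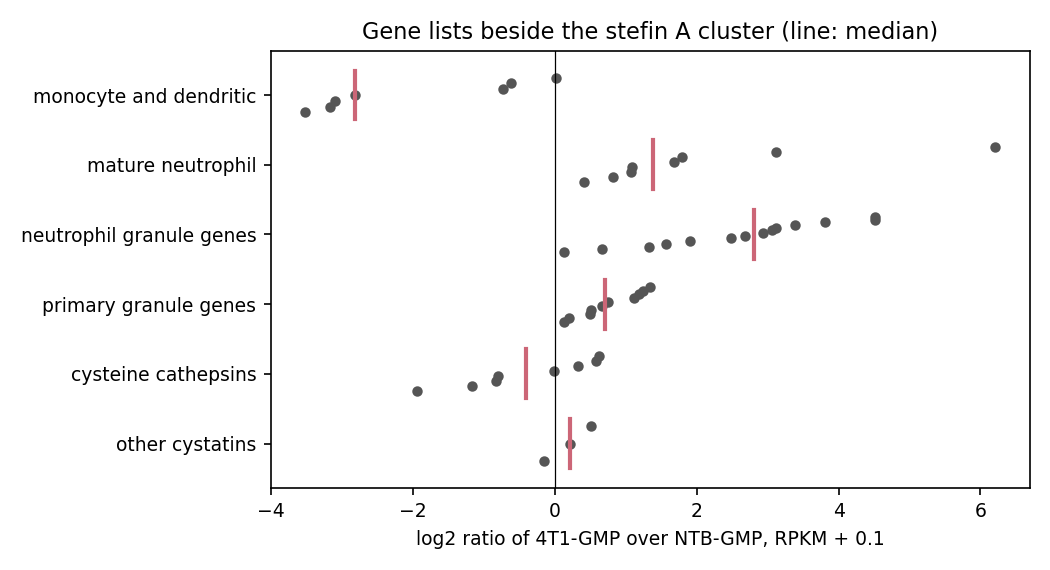
Difference of 4T1-GMP over NTB-GMP on the log2(RPKM + 0.1) scale for each gene that averaged at least 1 RPKM, in 6 gene lists, with a line at each list's median. The medians run from -2.82 for monocyte and dendritic markers to 2.81 for neutrophil granule genes.

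Markers of the progenitors and of other cell types also differed between the libraries. The counts of each list stand beside 54.7% of all 10378 genes that were higher, 3.25% at least 2-fold higher and 4.92% at least 2-fold lower. Of 9 progenitor markers that averaged at least 1 RPKM, 4 were higher in 4T1-GMP. Of the 9, 2 were at least 2-fold higher, Ms4a3 and Prtn3, and 1 at least 2-fold lower, Cd34 (2 lower without Rn45s or after quantile normalization). Their median log2 difference was -0.36. Mpo was at 5162 RPKM in NTB-GMP against 5625 in 4T1-GMP, and Elane at 1853 and 2935 RPKM. Fcgr3 was at 53.1 and 28.6 RPKM, Cebpa at 45.6 and 35.5 RPKM and Csf1r at 12.1 and 7.89 RPKM. Kit was at 78.5 and 49.1 RPKM and Cd34 at 154 and 59.4 RPKM, while Ly6a, which encodes Sca-1, was at 0 and 0.266 RPKM. Of 8 mature neutrophil markers, 8 were higher and 6 at least 2-fold higher in 4T1-GMP (4 without Rn45s in the library sizes). Their summed level was 137 RPKM in NTB-GMP against 257 in 4T1-GMP. None of these 8 was at 0 in either library, whereas Cd101, outside this list, was at 0 in NTB-GMP. Of 7 monocyte and dendritic markers that averaged at least 1 RPKM, 4 were at least 2-fold lower, and the summed level of the 8 listed was 185 and 79.9 RPKM. Of 6 mast cell and basophil markers, 4 were at least 2-fold lower, with summed levels of 455 and 188 RPKM. The part that any of these cells have in the cluster's values was not tested. Skin also expresses stefin A genes, and keratinocyte markers summed to 0.657 RPKM in NTB-GMP against 0.210 in 4T1-GMP, with Krt1, Lor, Krt14 and Krt5 at 0 in both. Of the epithelial markers that 4T1 cells could bring, Epcam, Krt14 and Krt5 were at 0 in both libraries and the 7 summed to 18.3 and 10.1 RPKM, mostly Krt18 and Cdh1. Lymphoid markers summed to 0.430 and 0.0734 RPKM and erythroid markers to 4.93 and 0.444 RPKM.

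The genes outside the cluster whose difference was closest to that of the summed cluster (8.86, as log2 of RPM after adding 0.1) were Pla2g7, Lipg, Steap4, Il1b and Slfn1, by the absolute gap over the 2 libraries. Pla2g7, a secreted phospholipase that cleaves platelet-activating factor, was at 0 RPKM in NTB-GMP against 9.99 in 4T1-GMP (6.66). Lipg, endothelial lipase, was at 0.0519 and 13.5 RPKM (6.49), and Steap4, a metalloreductase, at 0.0313 and 9.66 RPKM (6.22). Il1b, the cytokine interleukin-1 beta, was at 0.0740 and 12.8 RPKM (6.21), and Slfn1 at 0.0529 and 6.98 RPKM (5.53). Their gaps to the cluster were 2.20 to 3.32, but these set RPKM of single genes against RPM of the cluster, which are unlike units. With RPKM summed, the difference of the cluster was 10.09, further from all 5 genes. On either scale the difference is set by the pseudocount where NTB-GMP is at 0. The ratios of RPKM themselves were 261 for Lipg, 309 for Steap4, 173 for Il1b and 132 for Slfn1, from 1 or 2 reads in NTB-GMP, beside a bound of at least 157 for the cluster, so no order between them and the cluster can be read. Their 95% intervals, as log2 ratios of RPKM and for counting error, ran from 6.17 to 11.08 for Lipg, 5.79 to 13.57 for Steap4, 4.95 to 12.74 for Il1b and 4.56 to 12.35 for Slfn1. On the ratio of Il1b, 2.72 cluster reads would have been found in NTB-GMP, and 1.80 on that of Lipg, which lie under the floor of 3 reads. At this depth the 0 of the cluster in NTB-GMP thus could not be told from the ratios of Il1b or Lipg.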

How the data were processed

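The authors deposited 1 RPKM value per gene symbol and library; the submitters' processing notes name build mm10 and CASAVA 1.8.2, cutadapt 1.2.1, TopHat2 2.0.13, Picard 1.97, HTSeq 0.6.1 and edgeR 3.12.1, without settings. RPKM depend on the library size and gene length used, and Rn45s, the ribosomal RNA precursor, took up 17.0% of the NTB-GMP library size and 6.98% of that of 4T1-GMP. Library sizes and whole reads were recovered from the digits of the RPKM for 14833 of 14833 genes above 0, within a relative tolerance of 1e-10, and the procedure was tested on simulated data. For genes at 0 in the other library this gives the smallest whole reads. For the cluster genes the multiple was set by the annotated length, that of GENCODE exons with outer bounds from RefSeq. It met this length exactly for 5 members and within 1 base for Gm5483. Genes that averaged at least 1 RPKM were compared on log2(RPKM + 0.1), with Clopper-Pearson intervals. Promoter windows came from RefSeq tables, which held all 6 members, and transcripts from GENCODE M21. The members and gene lists were chosen with earlier results of these data known. Named genes were the members, all genes of the cluster, Cstb and the cathepsins, in other lists the 3 largest and 2 smallest differences, and the 5 genes most like the cluster. S100a8, the marker genes given by value, the flanking genes and the other cystatins were named outside that rule, after their values were seen. Alternatives were pseudocounts of 1 and 0.01, other filters, library sizes without Rn45s, quantile normalization and centring on the median. Reads of Rn45s were taken off the recovered library sizes, which need not be read totals, so that setting is approximate. Python 3.11.15 with pandas 2.3.3, scipy 1.17.1 and Biopython 1.88 was used.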

Additional observations from a re-analysis of the deposited data

How the results depend on the processing

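No paired analysis was possible because NTB-GMP and 4T1-GMP were 1 library each, which also left no replicate to drop. No member and no list median changed direction under the settings tried, while Mpo, Elane, Igfbp4, Padi4 and F13a1 changed sign under at least 1 scaling. The summed cluster's log2 difference of 8.86 became 5.56 with a pseudocount of 1 and ran from 8.33 to 12.17 under the other settings. Since NTB-GMP had 0 reads, this difference is set by the pseudocount. The bound of at least 157-fold does not depend on the pseudocount but rests on the set floor of 3 reads. That bound was 140-fold without Rn45s in the library sizes and, chosen after seeing the data, 134-fold with the smallest whole reads (1184). The members at least 2-fold higher numbered 5, 6 without a filter, which adds Stfa1 although its difference was not detectable at this depth, and 4 among genes that averaged at least 5 RPKM. With either filter the count was that of the members passing it, since all were at 0 in NTB-GMP. The median of the other cystatins (0.22) was 0.055 without Rn45s and 0.12 after quantile normalization, that of neutrophil granule genes (2.81) was 2.50 with a pseudocount of 1, and that of primary granule genes (0.71) was 0.55 without Rn45s and 0.38 after quantile normalization. With a pseudocount of 1 the members' differences were 5.05 for Stfa2l1, 5.04 for BC100530, 4.56 for Stfa2, 4.20 for Gm5483, 2.49 for Stfa3 and 0.56 for Stfa1, the last under 2-fold. The genes at least 2-fold higher numbered 337, from 236 with a pseudocount of 1 to 379 after quantile normalization, and those at least 2-fold lower 511, from 299 with a pseudocount of 1 to 700 without Rn45s. At the library size recovered for NTB-GMP, the floor of 3 reads puts a cluster gene listed at 0 there at up to about 0.7 RPKM.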

Other observations

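Besides the cluster genes, 5 of the 11 genes at 0 in NTB-GMP that averaged at least 1 RPKM lay elsewhere in the genome: Pla2g7, Gpr84, Arg2, Cd101 and LOC100038947. Gpr84, a receptor for medium-chain fatty acids on myeloid cells, was at 3.59 RPKM in 4T1-GMP, Arg2, the mitochondrial arginase, at 2.70 RPKM, and Cd101, a surface protein of mature neutrophils, at 2.42 RPKM. LOC100038947 was at 2.13 RPKM. These genes were named after their values were seen, and each was below Stfa3, at 4.61 RPKM, except Pla2g7 at 9.99 RPKM.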
